A study of Bombus terrestris with 16 samples.

Results

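Protein phosphorylation genes were the 97 transcript records, of 10635 in the deposited table, whose GO Process annotation held the exact term protein phosphorylation. No measured value entered this choice. The records are called genes here, and 82 of them were described as kinases. The other 15 were described as something else, among them calmodulin, catalase, titin, 2 guanylate cyclases, the cyclin-dependent kinase subunit CKS1, and the catalytic subunit of the phosphatase PP4. The label therefore covers most but not all of the members, and the 15 are described as a group of their own. Titin and a class III myosin, both among the 15, carried the enzyme number of a serine/threonine kinase.

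Poly(A) RNA was sequenced from guts of the bumblebee *Bombus terrestris*. The workers belonged to colonies K, L, S and T (4 in all), and were either controls or had been exposed to genotype 068, 075 or 161 of *Crithidia bombi*, a trypanosome parasite of the bumblebee gut. Each of the 16 libraries was a pool of 3 worker guts, from bees 7 d old at an interval of 18 h between exposure and death, with 1 library per colony and exposure. A group therefore had 4 libraries, 1 from each colony, and the spread between single workers was not measured. The labels do not say what the controls were given or whether infection was established in the exposed workers.

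A protein kinase moves a phosphate group from ATP onto a serine, threonine or tyrosine of another protein, and a protein phosphatase takes it off again. Most kinases act in chains, in which a receptor or a second messenger such as cyclic AMP or calcium switches on one kinase that then phosphorylates the next. In the gut of the fruit fly *Drosophila melanogaster*, the EGF receptor, insulin receptor, JNK, p38 and Hippo kinase pathways act in renewal of the lining and in responses to damage and infection. Kinases are controlled largely by phosphorylation of the kinase itself, so RNA levels measure how much message was present and not how active the protein was.

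Levels are given as scaled RPKM, reads per kilobase of transcript and per M reads after scaling between libraries, which allows comparison between genes of different length. The members took between 0.630% and 0.816% of all reads of a library. Their median level was 7.74 scaled RPKM, against 4.74 over all 10635 records, and 45 of the 97, or 46.4%, reached 10 scaled RPKM, against 34.1% of all records. The 201 other records described as protein kinases, which carry other annotation terms, had a median level of 3.74 scaled RPKM. The 99 protein phosphatases outside the list had a median of 7.40 scaled RPKM.

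Calmodulin (XM_003399786.1, LOC100649704), the calcium sensor that switches on several kinases, had the highest level of the list at 340 ± 29.4 scaled RPKM (SD, n = 16 libraries). Its lowest library had 290 scaled RPKM and its highest 381. Catalase (XM_003395923.1), an enzyme that breaks down hydrogen peroxide, followed at 102 ± 27.5 scaled RPKM. Among the kinases the highest was the MAP kinase interacting kinase (XM_003399953.1, LOC100651498), which phosphorylates the cap-binding translation factor eIF4E, at 97.95 ± 14.1 scaled RPKM.

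STK17 (XM_003400151.1, LOC100645807), a relative of the death-associated kinases, had 85.0 ± 25.3 scaled RPKM. Casein kinase 1 alpha (XM_003401022.1, LOC100642468), which marks beta-catenin and other proteins for destruction, had 74.9 ± 10.3 scaled RPKM. The p70 ribosomal S6 kinase (XM_003394505.1, LOC100646461), a target of the growth regulator TOR, had 68.3 ± 19.6 scaled RPKM.

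Other members at high levels included the catalytic alpha subunit of AMP-activated kinase (XM_003400862.1), the cell's sensor of low energy, at 58.4 ± 5.67 scaled RPKM. The beta-adrenergic receptor kinase (XM_003397942.1, LOC100651375), which turns off receptors coupled to G proteins, had 58.3 ± 12.5 scaled RPKM, and STK25 (XM_003400205.1, LOC100652052), of the STE20 group, had 57.7 ± 11.95. Casein kinase II alpha (XM_003398749.1, LOC100650733), a kinase that is active without a signal, had 51.5 ± 3.95 scaled RPKM.

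By group, the 8 CMGC and casein kinases had the highest median level, 30.2 scaled RPKM. As sorted here this group left out members described as cyclin-dependent or MAP kinases, which had groups of their own. The 15 AGC kinases, the group of protein kinases A and C and of AKT, had a median of 13.9 scaled RPKM, and all 15 passed the count filter. The 12 genes of the calmodulin-dependent and AMP-activated group ran from 0.0269 to 85.0 scaled RPKM and had a median of 1.32. Of those 12, 8 passed the filter.

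**Figure D1:**
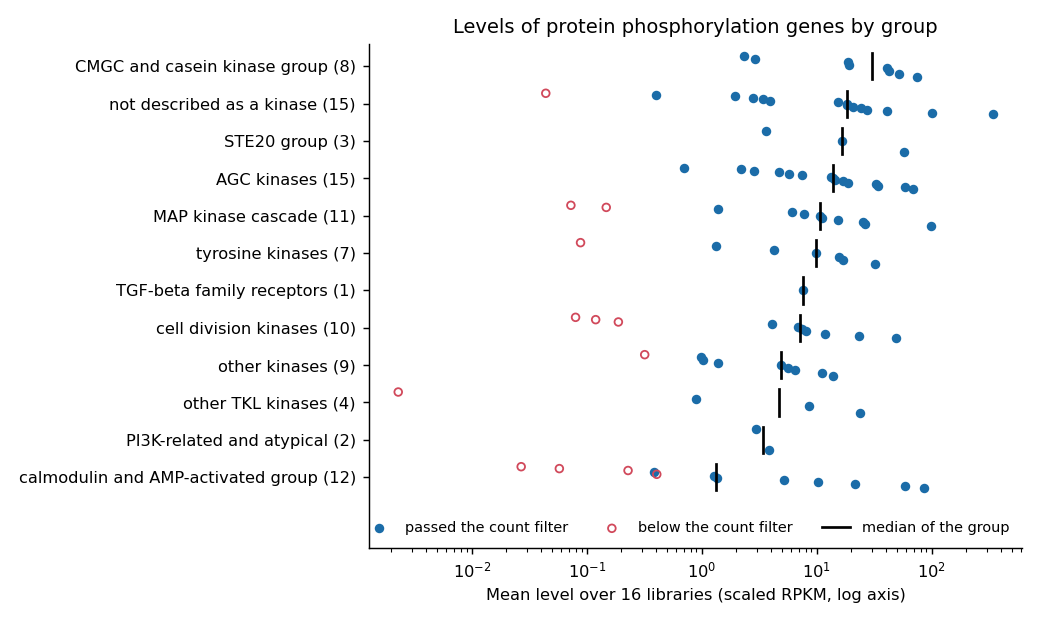
Mean level of each of the 97 members over the 16 libraries, in scaled RPKM on a log axis, with members sorted by kinase group (number of members in parentheses). Filled points passed the count filter, open points did not, and black bars are group medians. The CMGC and casein kinase group, sorted without cyclin-dependent and MAP kinases, had the highest median, 30.2 scaled RPKM.

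Among tyrosine kinases the EGF receptor (XM_003395879.1, LOC100645521) had the highest level, 32.2 ± 6.23 scaled RPKM. A Tec kinase (XM_003402102.1) had 17.03 ± 2.47 scaled RPKM and a c-Src kinase (XM_003395921.1, LOC100650959) had 15.6 ± 1.89; both are cytoplasmic kinases that act beneath membrane receptors. The insulin receptor (XM_003393746.1, LOC100650952) was much lower, at 1.33 ± 0.55 scaled RPKM.

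Members stood at each step of the MAP kinase cascade, though none was described as the terminal kinase ERK. Of the terminal kinases, JNK (XM_003402794.1, LOC100631091) had 26.5 ± 4.36 scaled RPKM and p38 (XM_003397036.1) had 15.4 ± 1.88. Both are stress-activated. Of the MAP kinase kinases, the step before the terminal kinases, MAP2K7 (XM_003394295.1), which activates JNK, had 25.5 ± 9.66. MAP2K4 (XM_003399398.1, LOC100652087) had 11.2 ± 2.07, and MAP2K1 (XM_003398666.1, LOC100649968) had 6.11 ± 1.25. MAP3K9 (XM_003398963.1), a mixed-lineage kinase at the top of the chain, had 10.6 ± 1.73.

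Of the insulin and TOR branch, PDK1 (XM_003396474.1), which activates AKT and S6 kinase, had 33.9 ± 12.8 scaled RPKM, and AKT itself (XM_003399097.1, LOC100643457) had 33.1 ± 4.48. CDK14 (XM_003396821.1, LOC100652163) at 48.8 ± 4.19 and CDK8/11 (XM_003395586.1) at 23.2 ± 1.52 were the highest of the cyclin-dependent kinases. CDK8 belongs to the Mediator complex of transcription. The activin type 2 receptor (XM_003395050.1, LOC100644052) was the single receptor of the TGF-beta family, at 7.57 ± 1.501. PAK1 (XM_003398110.1), a target of small GTPases, was the second of the STE20 group after STK25, at 16.5 ± 3.40. The highest of the other TKL kinases was testis-specific kinase 2 (XM_003402166.1, LOC100645268) at 23.7 ± 4.49, and that of the other kinases was a tousled-like kinase (XM_003402826.1, LOC100650987) at 14.0 ± 1.47. Of the PI3K-related and atypical kinases the higher was RIO kinase 2 (XM_003402858.1, LOC100645661), a factor of ribosome assembly, at 3.84 ± 1.18.

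Of the 97 members, 84 passed the filter on low counts that kept 8406 of all records, and 13 did not. The 13 had between 2 and 60 reads in all 16 libraries together. They comprised 2 records of CaM kinase II, 2 of CDK9, 2 of MAP4K3, 2 testis-specific serine kinases, a further LIM domain kinase record, a cyclin-dependent kinase-like gene, mos, the tyrosine kinase fer and a solute carrier. A count of 3 reads, the limit that a count of 0 allows, corresponded to 0.297 to 0.415 scaled CPM (counts per M reads) and covers counting error only. Just inside the filter were a protein kinase A record (XM_003402464.1, LOC100643510) with 190 reads and a CASK record (XM_003397575.1) with 202. The 2 CaM kinase II records share the symbol LOC100648089, so they are not separate genes, and reads could have been split between them in counting.

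The tested members varied less between libraries than all genes tested did. The SD of log2 CPM (prior count 2) over the 16 libraries had a median of 0.28 across the 84, against 0.33 across all genes tested. It reached 0.5 in 9 members, or 10.7%, against 26.0% of all genes tested. Low spread was not particular to the list. The phosphatases outside it had a median SD of 0.27, with 14.0% reaching 0.5, and the other kinases had 0.29, with 22.9%. The steadiest member was CDK8/11 with an SD of 0.10 and a range from 20.5 to 26.0 scaled RPKM. STK38 (XM_003402852.1), casein kinase II alpha and the nuclear receptor-binding protein (XM_003398979.1, LOC100648759), a pseudokinase, had SDs of 0.11, 0.11 and 0.12.

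The most variable was CKS1 (XM_003395474.1, LOC100645907), a small protein that binds cyclin-dependent kinases, with an SD of log2 CPM of 1.21. A LIM domain kinase (XM_003397225.1), which controls actin through cofilin, had an SD of 1.07, and aurora kinase A (XM_003393337.1, LOC100648234), a kinase of the mitotic spindle, had 0.89. The low protein kinase A record (XM_003402464.1) had 0.90, a testis-specific serine kinase (XM_003393348.1, LOC100649913) had 0.80 and an unclassified serine/threonine kinase (XM_003400029.1) had 0.62.

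No protein phosphorylation gene passed an adjusted p of 0.05 for exposure (edgeR quasi-likelihood test, Benjamini-Hochberg over 8406 genes). The background was the same, with 0% of all genes called for exposed against control, and 0% for each of the 3 genotypes. DESeq2 and limma called 0 members in each of these 4 comparisons as well. At an unadjusted p under 0.05 there were 6 of 84 members for exposed against control, against 3.13% of all genes tested. There were 2 for 068 against 2.97%, 6 for 075 against 3.16%, and 2 for 161 against 1.97%. The 3 genotype comparisons share the 4 control libraries, so they are not independent of each other.

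The estimated differences were small. In exposed against control, 79 of the 84 members lay within 0.5 of 0 on the log2 scale, none lay beyond 1, and the median standard error was 0.15. For single genotypes the median standard error was 0.19, and 1 estimate lay beyond 1, that of the LIM domain kinase with 068.

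The members' median log2 difference was -0.08 for exposed against control, and 56 of 84 were lower, against a median of -0.02 and 55.9% lower over all genes tested. After a gene length trend was removed it was -0.03 with 52 lower, against 0.004 and 49.0% over all genes tested. Before that removal, with 068 it was -0.07 with 57 lower, against -0.02 and 53.4%. With 075 it was -0.12 with 55 lower, against -0.01 and 52.4%. With 161 it was 0.01 with 40 lower, against -0.04 and 57% lower. The other kinases gave a median of -0.05 for exposed against control with 114 of 166 lower, and the phosphatases gave -0.06 with 62 of 93 lower, so kinases and phosphatases outside the list had medians of the same sign.

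The exposure median rested in part on 1 library. Without the T control it was -0.014, with 45 of 84 lower, against -0.024 over all genes tested. The members then no longer lay below the background. Over all 16 ways of leaving out 1 library the members' median ran from -0.11 to -0.01. The 161 median turned to -0.07, with 59 of 84 lower, without the L 161 library, and to -0.08, with 56 lower, without the K control, S 075 and L 161 together.

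**Figure D2:**
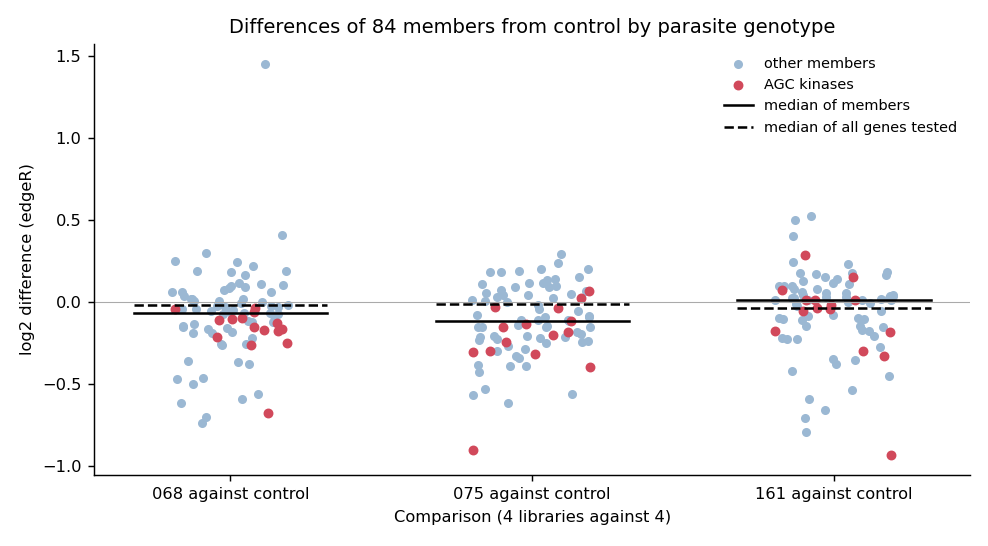
Log2 difference from control (edgeR) of each of the 84 tested members for the 3 parasite genotypes, 4 libraries against 4, with the 15 AGC kinases in red. Solid lines are the members' medians (-0.07, -0.12 and 0.01) and dashed lines those of all 8406 genes tested (-0.02, -0.01 and -0.04); the 3 comparisons use the same 4 controls and no member passed the threshold.

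By group, 14 of 15 AGC kinases and 6 of 6 tested tyrosine kinases had lower estimates in exposed libraries, against 55.9% of all genes tested. Their medians were -0.10 and -0.11. With 068 all 15 AGC kinases were lower, and with 161 there were 9, against 53.4% and 57% of all genes tested. These counts of members were the same with DESeq2 size factors in place of TMM scaling. In the T control the AGC and tyrosine kinases lay 0.28 and 0.30 above their own means in the median, on the log2 scale. Without the T control 6 of 15 AGC kinases were lower in exposed libraries. Of the 8 CMGC and casein kinases, sorted without cyclin-dependent and MAP kinases, 7 were lower, with a median of -0.17. In the MAP kinase cascade 3 of 9 genes were lower, as was 1 of 7 cell division kinases. None of these genes passed the test, so the counts describe estimates.

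The member with the smallest p for exposure was the Eph receptor B1 (XM_003400315.1, LOC100645846), a receptor tyrosine kinase for ephrins on neighbouring cells. It had 10.2, 15.8, 8.89 and 12.7 scaled RPKM in the controls of colonies K, L, S and T. With 068 it had 7.91, 8.29, 8.97 and 8.11, with 075 it had 7.19, 10.1, 8.26 and 10.5, and with 161 it had 9.70, 14.8, 7.29 and 9.03. Colony L was highest in the control and with 161, and the exposed and control ranges overlapped. The log2 difference was -0.36 ± 0.13 (SE), lower in 4 of 4 colonies, with an unadjusted p of 0.0165 and an adjusted p of 1.

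CASK (XM_003397576.1), a scaffold protein of cell junctions and synapses with a kinase-like domain, gave the next smallest p. Its controls had 1.45, 1.92, 1.36 and 1.96 scaled RPKM in K, L, S and T. With 075 this record had 0.954, 1.29, 1.24 and 1.06, all below every control, while the ranges of the other, lower CASK record overlapped. With 068 the S library, at 1.60, stood within the control range, and with 161 the L library did, at 1.70. For exposed against control the log2 difference was -0.55 ± 0.20 (SE), lower in 4 of 4 colonies, with an unadjusted p of 0.0172 and an adjusted p of 1.

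Among the other members under an unadjusted p of 0.05 for exposure, the SH3-binding domain kinase (XM_003400333.1, LOC100648258) had a log2 difference of -0.68 ± 0.29 (SE). Its K control, at 3.28 scaled RPKM, stood above the other 15 libraries, which ran from 0.805 to 1.67, and without it the difference was -0.36. An SNF-related kinase (XM_003398538.1, LOC100643582), of the AMP-activated family, had -0.52 ± 0.23, and it was lower in 3 of 4 colonies. Without the K control it was -0.23, and without the S control -0.77. A guanylate cyclase (XM_003394199.1), which makes the messenger cyclic GMP, had -0.25 ± 0.11, also lower in 3 of 4 colonies.

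For 075, a member described as an ecdysone monooxygenase (XM_003395584.1), the enzyme class that makes the active moulting hormone, had 20.3, 25.3, 20.8 and 24.3 scaled RPKM in the K, L, S and T controls. The 075 libraries had 16.2, 16.8, 19.1 and 20.04, so the ranges did not overlap. Its log2 difference was -0.33 ± 0.13 (SE), with an unadjusted p of 0.0273 and an adjusted p of 0.999. Atypical protein kinase C (XM_003399251.1), a kinase of epithelial polarity, had 16.04, 20.4, 19.3 and 17.03 in the controls. With 075 it had 13.96, 14.9, 14.99 and 15.1, all below the controls, and its log2 difference was -0.30 ± 0.13.

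CASK, the ecdysone monooxygenase and atypical protein kinase C were among the 4 of 84 members whose 075 and control ranges did not overlap, against a background of 2.14% of all genes tested. The other CASK record, with the same description, had 0.173 to 0.547 scaled RPKM with 075 against 0.265 to 0.567 in the controls. Of the 84 members, 10 were lower in the 075 library than in the control in all 4 colonies, or 11.9%, against 5.7% of all genes tested, and 1 was higher in all 4, against 5.02%. This was not particular to the list. Of the other kinases 9.04% were lower in all 4 colonies and 1.2% higher, and of the phosphatases 9.68% and 2.15%. The AGC group held 3 of the 10.

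The same counts were taken for the other comparisons. For 068, 5 members were lower in all 4 colonies and 4 were higher, against 4.16% and 4.25% of all genes. For 161, 7 were lower and none was higher, against 4.91% and 3.64%. For the mean of the 3 exposed libraries, 7 members were lower in all 4 colonies and 1 was higher, against 6.21% and 3.71%. No member had separate ranges for all 12 exposed libraries against the 4 controls, against 0.0238% of all genes.

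For 068 there were 5 members with separate ranges, against a background of 1.65%. The LIM domain kinase (XM_003397225.1) was the largest in size. It had 0.622, 0.135, 0.743 and 0.908 scaled RPKM in the K, L, S and T controls and 1.59, 1.36, 1.34 and 1.57 with 068. It was higher with 068 in 4 of 4 colonies, by a log2 difference of 1.45 ± 0.61 (SE), with an unadjusted p of 0.0312 and an adjusted p of 0.999. Its counts were low, from 5 to 62 reads in a library, and with 161 it ranged from 0.329 in S to 1.61 in T.

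MAP2K4 also lay above the controls with 068, at 11.4 to 13.7 scaled RPKM against 9.52 to 11.1. Protein kinase N (XM_003396714.1) and a serine/threonine kinase with no finer description (XM_003393878.1, LOC100647370) lay below. Protein kinase N had 17.5 to 17.6 against 17.9 to 21.6, a gap smaller than the spread of its controls. For 161 the ranges of all 84 members overlapped those of the controls, against a background of 1.06% of all genes without overlap.

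The smallest p values for 161 were those of CASK, with a log2 difference of -0.59 ± 0.26 (SE), and of the SH3-binding domain kinase, with -0.79 ± 0.36, or -0.44 without the K control. TBK1 (XM_003396843.1), a kinase of the innate immune response, had -0.45 ± 0.21 and an unadjusted p of 0.0551. Its L 161 library had 2.52 scaled RPKM, less than every other library, and without it the difference was -0.26. MAP4K4 (XM_003403274.1), an upstream kinase of the JNK branch, had an estimate of 0.50 ± 0.27 and was higher in 3 of 4 colonies.

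**Figure D3:**
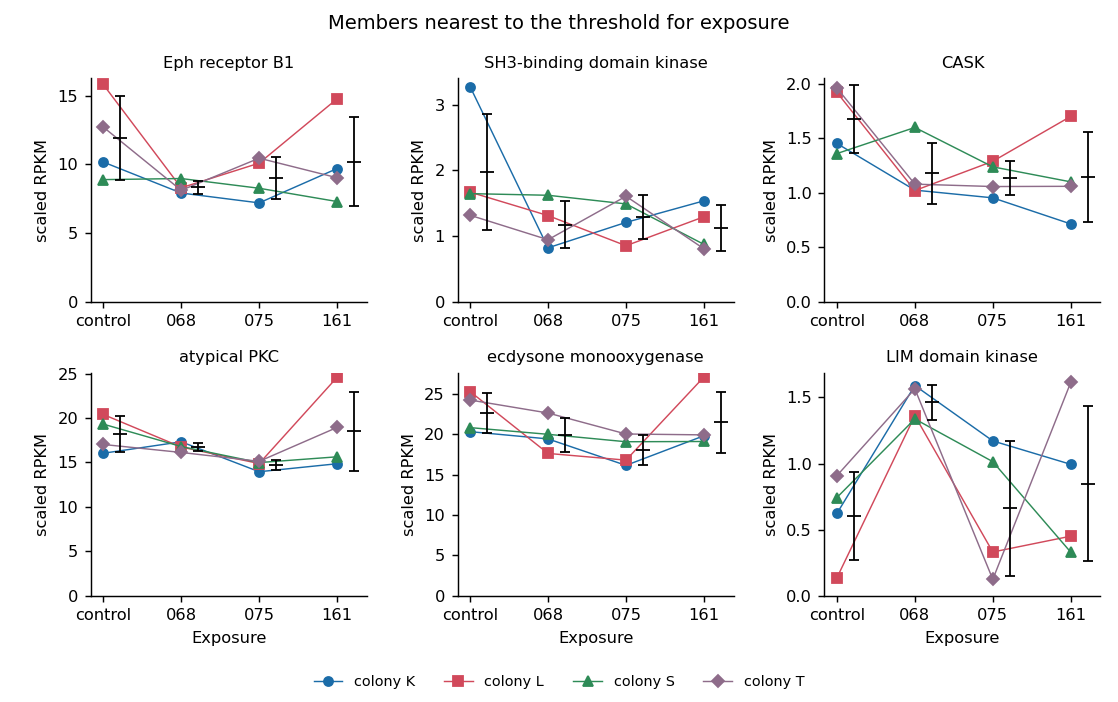
Scaled RPKM of 6 members with small p values for exposure in the control and the 3 genotypes, 1 point per library joined by colony, with mean ± SD of the 4 libraries in black. The CASK record shown, atypical PKC and the ecdysone monooxygenase lie below every control with 075. The LIM domain kinase lies above every control with 068, and no gene passed the adjusted threshold.

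The 3 genotypes did not differ in any member at an adjusted p of 0.05 by edgeR, DESeq2 or limma, against 0% of all genes. Only MAP3K9 was under an unadjusted p of 0.05, at 0.038, against 1.59% of all genes tested. A difference between genotypes was therefore not detected for CASK or the LIM domain kinase, whose ranges separated from the controls with some genotypes and not with others.

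When the K control, S 075 and L 161 libraries were left out together, 16 of 84 members were under an unadjusted p of 0.05 for exposed against control, against 9.64% of all genes tested. For 075 there were also 16, against 10.9%, for 068 there were 9, against 6.4%, and for 161 there were 8, against 4.81%. Without the 3 libraries no member passed the adjusted threshold in these comparisons, against 0.119% of all genes for 075 and 0% for the others. For the genotypes no member was under an unadjusted p of 0.05, against 2.51%. These 3 libraries stood apart in earlier results of the same data, so the counts without them are not an independent test of exposure.

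Colonies were compared over all 4 exposures. No member passed an adjusted p of 0.05 by edgeR or limma, against 0.464% of all genes, and 6 were under an unadjusted p of 0.05, against 10.2%. Without the K control, S 075 and L 161, 1.42% of all genes and no member passed for colonies, and 14.5% of all genes and 9 members were under an unadjusted p of 0.05. DESeq2 on all libraries called 1, catalase, at an adjusted p of 0.0269, against 0.254 by edgeR. Catalase had 137 ± 27.6 scaled RPKM in colony L (SD, n = 4), 97.5 ± 23.0 in T, 87.5 ± 3.28 in S and 85.0 ± 13.3 in K.

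Within colony L catalase ran from 108 with 075 and 119 with 068 to 155 in the control and 165 with 161. The T control, at 131, was the highest value outside colony L, and all 4 L libraries exceeded the other 3 T libraries. The libraries of K and S stayed between 67.8 and 96.5.

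STK17 and PDK1 showed the same libraries at the top. STK17 had 117 scaled RPKM in the L control, 120 in the T control and 151 in L 161, and 54.1 to 100 in the other 13 libraries. PDK1 had 55.3, 48.9 and 60.5 in those libraries, and 21.5 to 45.1 elsewhere, with K 068 at 45.1 and L 075 at 44.7. The unadjusted p for colonies was 0.0228 for STK17 and 0.0367 for PDK1, and neither passed adjustment by edgeR (0.417 and 0.472).

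The remaining members under an unadjusted p of 0.05 between colonies were a class III myosin (XR_131807.1), a DYRK kinase (XM_003393579.1, LOC100649438) and the Eph receptor. The myosin, an actin motor joined to a kinase domain, was highest in colony K, at 2.58 ± 0.58 scaled RPKM (SD, n = 4), against 1.58 to 1.78 in the means of the others. The DYRK kinase had 20.8 ± 1.57 in L and 19.8 ± 3.13 in K, against 15.6 ± 1.20 in S.

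The L 161 library stood out for the list. It held the highest value of 30 of the 84 members, or 35.7%, against 18.1% of all genes tested. The median deviation of the 84 from their own means was 0.29 on the log2 scale in L 161, 0.14 in the T control and 0.11 in the L control, and between -0.07 and 0.02 in the other 13 libraries. Over all genes tested the median in L 161 was -0.05. The other kinases and the phosphatases had medians of 0.00 and 0.03 there.

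In L 161, 20 members, or 23.8%, lay at least 0.5 above their mean, against 16.7% of all genes tested. MAP2K7 was the farthest, at 58.5 scaled RPKM against 18.4 to 33.8 in the other 15 libraries. The p70 S6 kinase had 127 against 48.8 to 97.9, and STK25 had 89.3 against 43.5 to 75.3. By group, median deviations in L 161 ran from -0.86 for the 2 PI3K-related and atypical kinases to 0.66 for the 3 genes of the STE20 group. The AGC kinases had 0.41, the MAP kinase cascade 0.43 and the cell division kinases 0.08. In the same library 9 members, or 10.7%, lay at least 0.5 below, against 26.4% of all genes tested, led by aurora kinase A at 0.730 scaled RPKM, TBK1 at 2.52 and MAP2K4 at 5.42.

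Records matched as muscle markers were also high in some of these libraries. Of these 29 records 20 were tested, and their median deviation was 0.35 in L 161, 0.32 in the T control and 0.09 in the L control. In T 161 it was 0.14, above that of the L control, while the members' median there was 0.02. Their summed level ran from 2192 to 3934 scaled CPM in controls and from 2506 to 3975 with 161, against 2495 to 3054 with 068 and 2627 to 3105 with 075. The match took every record described as a myosin heavy chain, so this list was not restricted to muscle forms. Of 35 genes matched as nervous system markers 22 were tested. Their median deviation was 0.27 in L 161, -0.04 in the T control and -0.07 in the L control, and their sum ran from 722 to 1071 scaled CPM with 161 against 659 to 827 in the other groups. The match on syntaxin 1 also took in syntaxins 16, 17 and 18, so the nervous system list was not restricted to nerve genes. A syntaxin 18 record in that sum ran from 145 to 398 scaled CPM. The part of muscle or nerve tissue in these values was not tested. In a pooled gut, more cells of a type and more RNA per cell cannot be told apart. None of the matched muscle, nervous system or cell division markers was at 0 in every library. No record matched the hemocyte or fat body markers, so those cells were not assessed.

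**Figure D4:**
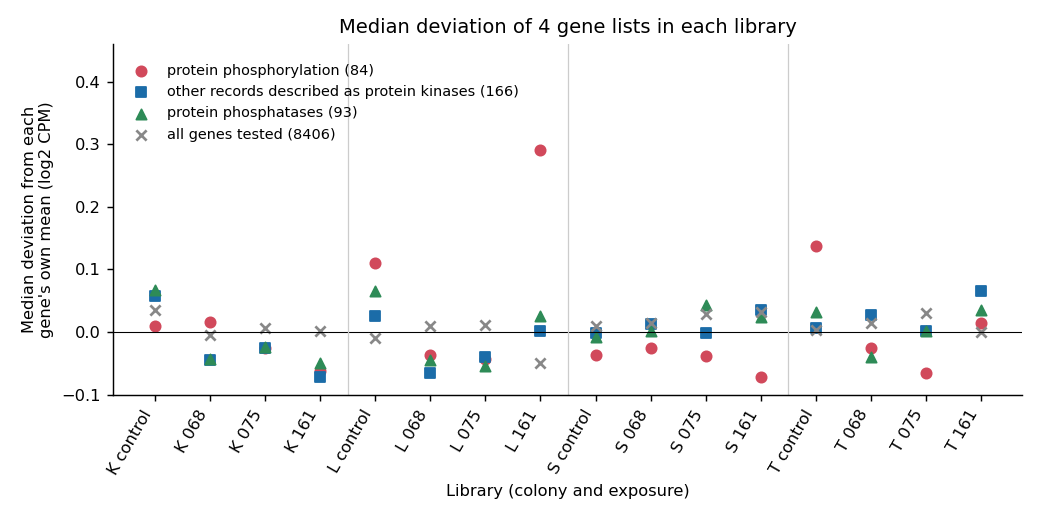
Median deviation (log2 CPM) from each gene's own mean over the 16 libraries, for 84 protein phosphorylation genes, 166 other kinases, 93 phosphatases and all 8406 genes tested. Libraries are ordered by colony and exposure; the members' median was 0.29 in L 161, 0.14 in the T control and 0.11 in the L control.

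Within colonies, each exposed library was also set against its own control. The members' median difference in colony L was -0.20 with 068, -0.19 with 075 and 0.12 with 161. In T it was -0.09, -0.21 and -0.09, and in K it was 0.08, -0.10 and -0.10. In S it stayed between -0.03 and 0.04. Each value rests on 1 library against 1, with no replicate.

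One member, CKS1, was called in the fit of colony differences in exposure (edgeR quasi-likelihood test, adjusted p = 0.0264), against a background of 1.69% of all genes called. Each colony had 1 control library in this fit, and the spread came from exposed libraries of different genotypes, so a colony difference cannot be told apart from a single control library that stood apart. At an unadjusted p under 0.05 there were 7 members, against 10.7%. CKS1 had 11.7 scaled RPKM in the K control, and 1.15, 1.19 and 0.893 in the K libraries exposed to 068, 075 and 161. In colony S it had 0.756 in the control and 2.60, 11.6 and 3.71 after exposure.

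In colony T CKS1 had 0.506 in the control and 2.16, 1.95 and 1.06 after exposure, and in colony L 1.17 in the control and 1.05, 1.26 and 2.13. It was therefore lower in all 3 exposed libraries in K and higher in all 3 in S and T. The K control and S 075 were the only libraries above 3.71. Without the K control the adjusted p was 1, and without the K control, S 075 and L 161 together it was 0.599. Without those 3 libraries 8 members were under an unadjusted p of 0.05, against 8.48% of all genes. CKS1 also missed the threshold without K 068, K 075, K 161, L 075, the S control or T 068, one at a time, with adjusted p values from 0.0514 to 0.095.

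Aurora kinase A had the same libraries at the top, with 16.3 scaled RPKM in the K control, 11.51 in S 075 and 0.730 to 8.91 in the other 14 libraries. Its lowest value was in L 161. The nemo-like kinase (XM_003394155.1, LOC100651912), a MAP kinase relative that acts on Wnt signalling, had 20.6 in the K control, 11.4 in S 075 and 3.39 to 9.39 elsewhere. Its adjusted p for a colony difference in exposure was 0.0961 by edgeR and 0.00411 by DESeq2. By edgeR it was 0.00752 without L 161 and 0.0481 without L 068. In the other 14 of the 16 edgeR fits without 1 library the nemo-like kinase did not pass. The K control, its highest library, was the only control of its colony in this fit.

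Cell division markers were highest in the K control and S 075, as these 3 genes were. The 30 tested of 35 markers, none of them a member of the list, had median deviations of 0.75 in the K control, 0.56 in S 075 and -0.65 in L 161. In L 161 only aurora kinase A of the 3 was low: CKS1, at 2.13 scaled RPKM, was the highest of colony L, and the nemo-like kinase, at 9.39, was above all libraries but the K control and S 075. The summed level of the markers was 480 scaled CPM in the K control and 369 in S 075, the highest of the controls and of the 075 libraries. The match on cyclin B also took in a calcyclin binding protein, at 40.0 to 97.7 scaled CPM. It had the highest median of the list, so the sum was not of cell division genes alone. The part of the markers in the values of CKS1, aurora kinase A and the nemo-like kinase was not tested. The other cyclin-dependent kinases were less spread: CDK7 (XM_003396054.1, LOC100647145) had 9.54 to 16.6 scaled RPKM and CDK14 41.9 to 58.0.

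A protein kinase A record (XM_003398189.1, LOC100652247), the kinase switched on by cyclic AMP, showed an opposite pattern in K. It had 2.15 scaled RPKM in the K control, the lowest of all 16 libraries, and 6.10, 8.77 and 4.24 after exposure. In S it had 4.995 in the control and 2.71, 2.92 and 3.49 after exposure, so every exposed K library lay above its control and every exposed S library below. Its adjusted p was 0.169 by edgeR and 0.0347 by DESeq2, with 1 control library per colony. In the 16 edgeR fits without 1 library it never fell below 0.0767. The insulin receptor followed with an adjusted p of 0.207 by edgeR, and never below 0.0974 in those 16 fits. It had 2.30 in the K control against 0.539 to 1.01 in exposed K, and 0.815 in the S control against 1.52 to 1.80.

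**Figure D5:**
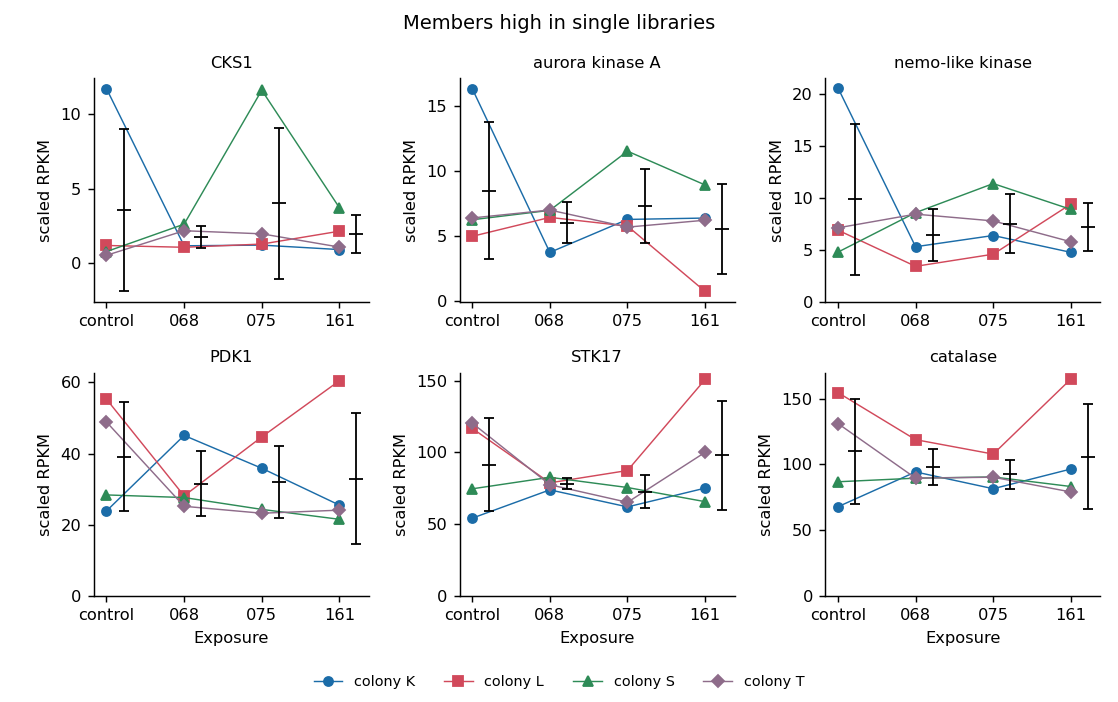
Scaled RPKM of 6 members in the control and the 3 genotypes, 1 point per library joined by colony, with mean ± SD of the 4 libraries in black. CKS1, aurora kinase A and nemo-like kinase were highest in the K control and S 075; PDK1, STK17 and catalase were high in L 161, the L control and the T control.

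The annotation of the members, which the measured levels did not enter, was mostly that of serine/threonine kinases. The enzyme number deposited with the description was that of a serine/threonine kinase for 68 members, of a tyrosine kinase for 7 and of a dual-specificity kinase for 7. A further 6 had another enzyme number and 9 had none. ATP binding was annotated for 78 of the 97, calmodulin-dependent kinase activity for 12 and protein kinase C activity for 10. In GO Process, 8 members also held intracellular signal transduction, 5 cell division and 4 the MAPK cascade.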

How the data were processed

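The authors deposited 1 table with a read count and an RPKM per transcript record and library, per the file headers. Reads were aligned with TopHat 1.9, per the submitters' processing notes. The counting program, genome build and annotation are not given in the sources used here. The deposited RPKM equalled count, length and total combined in 151539 of 151539 nonzero cells (relative tolerance 1e-06), so the counts were used, and 16 coverage columns were not. Library totals ran from 8.47 to 9.29 M reads. Of the deposited counts from 1 to 9, 69.1% were even, against 49.6% of those from 200 to 999; if both mates were counted, low counts hold fewer fragments.

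Counts were tested with edgeR 4.0.16 (R 4.3.3): TMM scaling, filterByExpr, quasi-likelihood F-test on colony plus exposure, Benjamini-Hochberg over 8406 genes, threshold 0.05. The test of colony differences in exposure took a colony's 3 exposed libraries as its replicates. Scaled RPKM is TMM-scaled CPM per kilobase. DESeq2 1.42.0, limma 3.58.1, other scaling, no filter, no colony term, removal of a gene length trend and leaving out libraries were alternatives. The fit was tested on simulated data. P-values measure spread between pools.

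Colony is the pairing of the design, per the labels, and stood in the fit. Descriptions came from the deposited KEGG hit, whose deposited score was at least 128 for every member; symbols matched 54 of 97 members in a RefSeq gene table. Kinase groups were patterns on the description, adapted after the descriptions were seen. Genes named were those past the threshold or the 6 smallest p per test, the 10 highest, the 2 highest per group and the 6 most variable; others were chosen after their values were seen. Members, lists and tests were chosen with earlier results of these data known. Sequences and coordinates were not used here, and 1 gene that the rule names is not reported here.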

Additional observations from a re-analysis of the deposited data

Results flagged for a closer look

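Among 28 named genes, 112 groups of 4 libraries were checked for a library far from the other 3 of its exposure, and 12 had one. Chance alone gives about 1 in 20 groups where genes are not chosen by their values. These genes were named partly for small p values or a large spread in the same libraries. The 12 therefore cannot be weighed against that rate. The K control stood above the other controls for CKS1 at 11.73 scaled RPKM, for aurora kinase A at 16.32 and for the nemo-like kinase at 20.58. S 075 stood above the other 075 libraries for CKS1 at 11.62 and for aurora kinase A at 11.51. These 5 fall in the 2 libraries in which cell division markers were highest; their part was not tested.

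L 161 stood above the other 161 libraries for PDK1 at 60.48 scaled RPKM and for the ecdysone monooxygenase at 27.11. K 068 was high for PDK1 at 45.08. L 068 was high for catalase at 118.9 and for TBK1 at 7.021, S 068 for CASK at 1.601 and L 075 for MAP4K4 at 1.714.

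CKS1 was called for a colony difference in exposure (edgeR quasi-likelihood test, adjusted p = 0.0264), but without the K control the adjusted p was 1. With 1 control library per colony, a colony difference cannot be told apart from that library.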

How the results depend on the processing

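The count of members called was 0 under every alternative run for exposed against control, for each genotype and for the differences between genotypes. For colonies it was 0, and 1 with DESeq2. For the colony difference in exposure it was 1, with a range of 0 to 2 when each library was left out in turn, 3 with DESeq2 and 0 without the K control, S 075 and L 161. The members' median for exposed against control ran from -0.108 to -0.014 when each library was left out, and was -0.032 after a gene length trend was removed. Without the colony term, that is with no replicate block, 0 members were called in the 4 exposure comparisons and the median was -0.08 for exposed against control. The members' medians for exposed against control, 068 and 075 stayed below 0 under every alternative run. The median over all genes tested was also below 0 in most of those runs. Without the T control it lay below the members' median for exposed against control, at -0.024 against -0.014. The members' median for 161, 0.011, changed sign: it ran from -0.07 to 0.043 when each library was left out, and was -0.082 without the K control, S 075 and L 161. Low members, under about 60 reads in all, could not be tested at this depth, and leaving out a library from 4 lowers the power of each test; the gene length trend was removed for medians only.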
